A study of Saccharomyces cerevisiae with 6 samples.

Results

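Small nucleolar RNAs (snoRNAs) and spliceosomal RNAs (snRNAs) were followed in budding yeast at 3 temperatures by reading the genes whose R64 symbol begins with SNR from a table of raw counts. The rule found 81 of the 6461 genes in the table: 47 box C/D snoRNAs, 29 box H/ACA snoRNAs and 5 spliceosomal RNAs. The class given to a gene matched its annotation note in 79 cases, and the notes of the other 2 genes, SNR4 and SNR45, name both kinds of box. The cells were of the BY4741/2 background and, in all groups, carried protein A on Cbp80 (CBP80-PPX-PrA), the large subunit of the nuclear cap-binding complex, together with a SNAP-tagged Yra1 (SNAPf-YRA1), an mRNA export factor. Cultures grew in rich YPD medium at 25°C or at 30°C, or grew at 25°C and were then held at 37°C for 2 h after an equal volume of pre-warmed medium had been added, so heat and fresh medium changed together at 37°C and cannot be told apart. Total RNA from 2 biological replicates per temperature was sequenced by 3′-Tag-seq, in which reverse transcription starts from an oligo-dT primer. Annotated genes took between 184456 counts, in the first 25°C replicate, and 1006632 counts. URA3 and MET17, which the strain background lacks, had 0 counts in every library.

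SnoRNAs pair with ribosomal RNA (rRNA) in the nucleolus. Box C/D snoRNAs carry the short boxes C and D, bind Nop1, Nop56, Nop58 and Snu13, and mostly guide 2′-O-methylation, whereas box H/ACA snoRNAs end near an ACA triplet, bind Cbf5, Gar1, Nhp2 and Nop10, and mostly guide pseudouridylation. A few members, among them U3, U14, snR30 and snR10, are needed for the cuts that release 18S rRNA. The spliceosomal RNAs U1, U4, U5 and U6 are held here as SNR19, SNR14, SNR7-L with SNR7-S, and SNR6, while U2 is named LSR1 and lies outside the symbol rule. Mature snoRNAs and snRNAs have no poly(A) tail, so a count in an oligo-dT library may come from a polyadenylated precursor or decay intermediate, or from priming inside the RNA, and the 2 sources were not separated. A level here is therefore a level of oligo-dT primed fragments and not of the mature RNA. Fewer copies per cell and a smaller share of cells that carry the RNA cannot be told apart in such bulk samples.

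Genes that the results turn on are shown first, since their sequences may bear on how a library of this kind reads them, which was not tested. All are printed from RefSeq's copy of the R64 assembly in the direction of transcription, 5′ to 3′. Capitals mark box C (TGATGA within the first 15 bases), box D (CTGA within the last 15 bases) or an ACA triplet near the 3′ end. SNR4 lies at chrV:424698-424883 on the plus strand, SNR70 at chrXVI:718887-719050 and SNR51 at chrXVI:718700-718806, both on the minus strand. SNR161 lies at chrII:307185-307345 and SNR7-L at chrVII:939459-939672, both on the minus strand.
SNR4: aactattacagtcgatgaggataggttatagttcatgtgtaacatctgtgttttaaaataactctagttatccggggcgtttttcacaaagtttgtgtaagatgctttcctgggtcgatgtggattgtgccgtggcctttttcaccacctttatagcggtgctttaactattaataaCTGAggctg
SNR70: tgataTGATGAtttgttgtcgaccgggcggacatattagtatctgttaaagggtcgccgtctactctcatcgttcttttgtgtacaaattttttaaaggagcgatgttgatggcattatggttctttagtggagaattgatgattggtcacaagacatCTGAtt
SNR51: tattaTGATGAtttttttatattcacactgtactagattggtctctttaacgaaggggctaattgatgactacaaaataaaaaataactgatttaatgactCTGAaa
SNR161: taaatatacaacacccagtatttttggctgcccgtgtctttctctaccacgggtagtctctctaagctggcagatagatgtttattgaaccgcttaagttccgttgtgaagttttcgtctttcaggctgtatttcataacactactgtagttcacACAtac
SNR7-L: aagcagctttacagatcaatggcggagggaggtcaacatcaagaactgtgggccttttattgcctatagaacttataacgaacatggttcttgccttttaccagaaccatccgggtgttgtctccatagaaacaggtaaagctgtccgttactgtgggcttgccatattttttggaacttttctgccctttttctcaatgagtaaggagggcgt
The exact letters of box C were found near the 5′ end of 36 of the 47 box C/D genes (76.6%) and those of box D near the 3′ end of 45 (95.7%), against 0.747% and 7.84% of 6021 coding genes. In SNR4 only box D was found. The ACA triplet was found in 14 of the 29 box H/ACA genes (48.3%), against 1.15% of coding genes. For boxes C and D, a missing match says only that these letters are not in the window searched. The search for ACA was narrower than those windows: SNR189 ends in ACA and was not counted. The share of 48.3% therefore leaves out at least this gene.

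The richest stretch of A within each gene is shown for SNR36 and SNR51, which stood far higher in the first 25°C library than in the second, and for SNR33, which stood far lower. Capitals mark the 20 bases with the most A. The windows lie at chrXV:680789-680818 for SNR36, at chrXVI:718715-718744 for SNR51 and at chrIII:142486-142515 for SNR33, all on the minus strand.
SNR36: gctggATGACAAAAAAATAAAAATAcattt
SNR51: ttgatGACTACAAAATAAAAAATAActgat
SNR33: actctAAAATTATTTACGTAATTTAattgg
The window held 15 A in SNR36, 14 in SNR51 and 9 in SNR33, and between 7 and 15 (median 10) over all 81 members. The longest unbroken run of A within a member was 8 bases. Other genes rich in A went the other way: SNR56 and SNR47, with 13 and 12 A, were lower in the first 25°C library, with log2 ratios to the second of −2.07 and −1.18 (5 CPM added to each value).

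Of the 81 members, 80 had a count in at least 1 library and 76 passed the filter on low counts. SNR7-S, the short form of U5, had 0 counts in every library. It starts at the same base as the long form, SNR7-L, ends 35 bases sooner and so holds no base of its own. SNR50, SNR53, SNR59 and SNR191 had 12 to 49 counts over all libraries and were not tested. Counts fell very unevenly on the rest. SNR84 and SNR86, which guide pseudouridylation of 25S rRNA, had 13178 and 12134 counts, or 16.8% and 15.4% of all counts in members. Per base of gene length, SNR40 had the most (42.3 counts per base), followed by SNR51 (32.6), SNR84 (24.0) and SNR46 (20.9), while SNR86, a gene of 1004 bases, had 12.1. Across all 81 members the summed counts and the length of the gene gave a Spearman rho of 0.42, a description over genes that share the same 6 libraries.

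Members held 3.05% (95% Wilson interval 2.97% to 3.13%) and 1.73% (1.71% to 1.76%) of the counts in annotated genes at 25°C, 1.27% (1.25% to 1.29%) and 1.85% (1.82% to 1.89%) at 30°C, and 2.02% (1.99% to 2.05%) and 1.57% (1.54% to 1.59%) at 37°C. The temperatures overlap, and replicates differ by far more than these intervals, which cover counting error only. Box H/ACA genes held 1.91% and 1.04% (25°C), 0.753% and 1.10% (30°C), and 0.965% and 0.766% (37°C). Box C/D genes held 0.928% and 0.578% (25°C), 0.438% and 0.618% (30°C), and 0.900% and 0.682% (37°C). The balance within the members did separate: SNR84 and SNR86 together took 45.6% and 36.9% of the counts in members in the 25°C libraries, 32.5% and 37.0% in those at 30°C, and 26.3% and 24.6% in those at 37°C, so both 37°C libraries lie below the other 4.

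**Figure D1:**
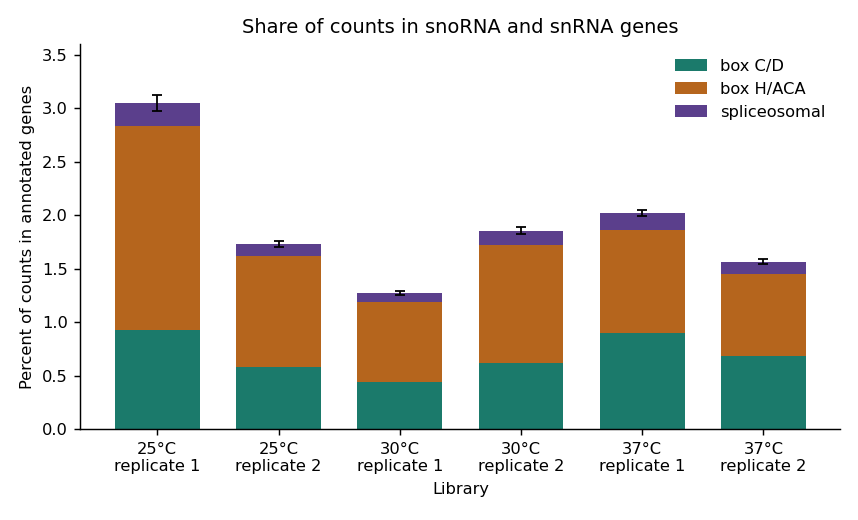
Share of the counts in annotated genes that fell on snoRNA and snRNA genes, in percent, for each of the 6 libraries, stacked by class. Error bars are 95% Wilson intervals of the summed share, and the first 25°C library stands highest at 3.05%.

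The first 25°C library stood apart from its replicate, and this touches every comparison with 25°C. Levels are given as CPM, the counts of a gene over a library size scaled with TMM factors. In the first 25°C library 3 counts are worth 17.6 CPM, against 2.81 to 4.25 CPM in the other 5. In that library 21 members had 3 counts or fewer, against 2 to 5 elsewhere. With 5 CPM added to each value, the log2 ratio of the first to the second 25°C library ran from −3.16 (SNR33) to 2.78 (SNR36) over the members, against −1.03 to 1.84 between the 30°C replicates and −0.63 to 0.86 between the 37°C replicates. SNR36 had 876 and 123 CPM in the 25°C libraries, and SNR51 had 3663 and 752 CPM. SNR33, SNR189 and SNR7-L had 1 count each in the first library, against 78, 58 and 42 counts in the second. This library was the highest of the 6 for 17 of the 76 tested members (22.4%, against 31.3% of all tested genes). It was the lowest for 39 (51.3%, against 42.4%). Across the 76 tested members, this log2 ratio and the number of A in the richest 20 bases gave a Spearman rho of 0.33, a weak relation between genes read in the same 2 libraries. Results are therefore given with and without it.

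At 37°C against 25°C, SNR4, SNR17A, SNR70 and SNR161 had higher levels in both 37°C libraries than in either 25°C library, with log2 fold changes of 2.10, 1.73, 1.44 and 1.71. SNR30 and SNR81 had lower levels in both, with −0.97 and −1.60. These genes serve 18S rRNA cleavage (SNR17A, SNR30) or the modification of rRNA. Genes were tested by edgeR's quasi-likelihood test over all 5181 genes that passed the filter, and calls needed both an adjusted p under 0.05 and a log2 fold change past 1 or −1. No member was called, as was no gene in the table (0.0%), and the smallest adjusted p of a member was 0.147. At an unadjusted p below 0.05, 17 of 76 members were higher (22.4%, against 7.53% of all genes) and 11 were lower (14.5%, against 6.02%). With library totals in place of TMM factors the split moved to 24 higher (12.3% of all genes) and 3 lower (2.12%), and the median of the members was 0.63 where that of all genes was 0.33. The groups did not overlap for 35 members that were higher (46.1%, against 29.4% of all genes) and 17 that were lower (22.4%, against 23.2%). DESeq2 called 4 members, of the 18 it gave an adjusted p: SNR4, SNR17A and SNR70 were higher and SNR36 was lower, beside 4.58% of all genes with an adjusted p, and limma-voom called 0. The median log2 fold change was 0.39 over the members and 0.09 over all genes, and −0.047 over the 38 members with at least 10 counts in every library.

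Without the first 25°C library, 12 of 77 members were higher at an unadjusted p below 0.05 (6.34% of all genes) and 3 were lower (4.0%), and all 15 of these had passed in the same direction with it. The 3 lower genes were SNR30, SNR8 and SNR81. The median then was 0.10 over the members and 0.01 over all genes, and DESeq2 called SNR4 alone (0.504% of all genes with an adjusted p). Without the second 25°C library, so that the 25°C group rests on the shallow one, edgeR called 16 members (6.83% of all genes), 7 higher and 9 lower, and the median of the members was 0.88. The median of the members was 0.31 without the first 37°C library (0.10 over all genes) and 0.55 without the second (0.07).

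SNR4, a box C/D snoRNA that guides acetylation of 18S rRNA, had the smallest p of all members. It had 153 and 205 CPM at 25°C, 194 and 147 CPM at 30°C, and 926 and 624 CPM at 37°C. Both 37°C libraries lie well above the other 4, which overlap among themselves. The log2 fold change was 2.10 (SE 0.38, 95% interval 1.20 to 2.99) at 37°C against 25°C, with an adjusted p of 0.147 by edgeR and 0.00246 by DESeq2. At 37°C against 30°C it was 2.18 (SE 0.37, adjusted p 0.239 by edgeR and 0.00265 by DESeq2). Over 15 alternatives the value ran from 1.79 to 2.36 against 25°C and from 1.87 to 2.44 against 30°C, while the adjusted p (edgeR, DESeq2 or limma-voom) ran from 0.00246 to 0.943 and from 0.000120 to 1.00, both highest without the second 37°C library. RPS26B, a ribosomal protein gene that ends 386 bases upstream on the same strand, had 58.8 and 63.9 CPM at 25°C, 293 and 53.8 CPM at 30°C, and 38.4 and 45.0 CPM at 37°C, so its levels did not follow those of SNR4.

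**Figure D2:**
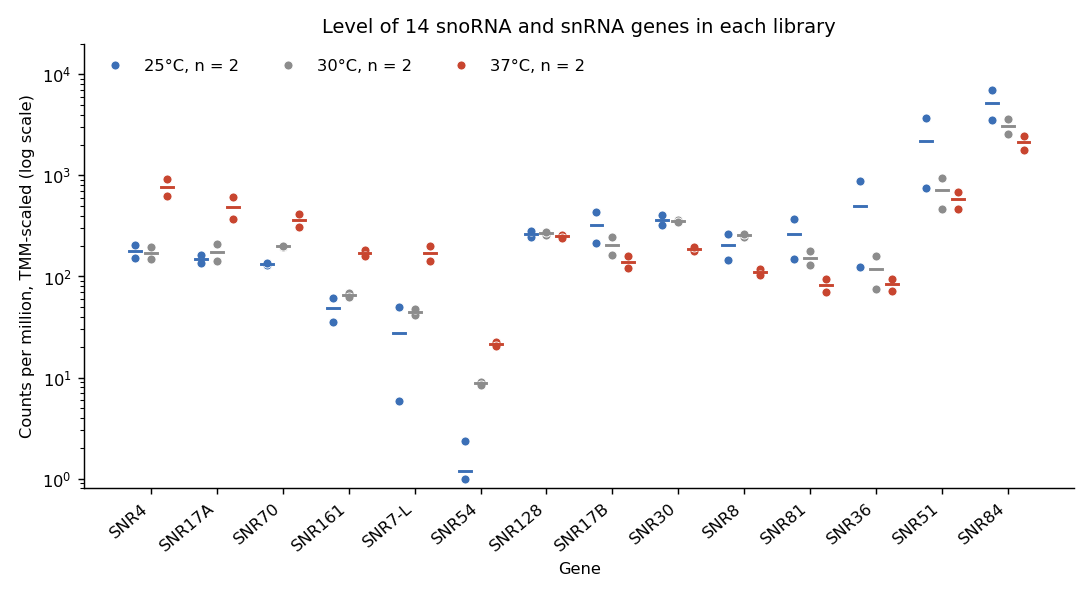
Level in CPM (TMM-scaled, log axis) of 14 snoRNA and snRNA genes in each of the 6 libraries. Points are libraries, bars are means of 2 libraries, and the single 0 (SNR54, first 25°C library) is drawn at the foot of the axis; SNR4 reached 926 and 624 CPM at 37°C.

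Of the snoRNAs needed to cut out 18S rRNA, U3 is encoded by SNR17A at chrXV:780107-780596 on the plus strand and by SNR17B at chrXVI:281056-281517 on the minus strand. SNR17A had 165 and 136 CPM at 25°C, 143 and 208 CPM at 30°C, and 611 and 374 CPM at 37°C. SNR17B had 435 and 217 CPM at 25°C, 162 and 246 CPM at 30°C, and 160 and 120 CPM at 37°C. At 37°C against 25°C the log2 fold change was 1.73 for SNR17A (SE 0.39, adjusted p 0.201 by edgeR, 0.0332 by DESeq2) and −1.19 for SNR17B (SE 0.44, adjusted p 0.338 by edgeR), and without the first 25°C library the value for SNR17B was −0.66 (unadjusted p 0.101 by edgeR). At 37°C against 30°C it was 1.49 for SNR17A (adjusted p 0.424 by edgeR) and −0.55 for SNR17B (adjusted p 0.899 by edgeR). Over 15 alternatives SNR17A had 1.33 to 2.04 against 25°C, with adjusted p from 0.0332 to 0.943 by edgeR, DESeq2 or limma-voom.

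Because both copies are read in the same library, their ratio does not depend on depth or scaling. SNR17A took 27.5% (95% Wilson interval 19.7% to 36.8%, 102 counts) and 38.6% (33.2% to 44.2%) of the counts of the pair at 25°C, 46.9% (41.0% to 52.8%) and 45.8% (40.4% to 51.3%) at 30°C, and 79.3% (76.1% to 82.1%) and 75.7% (71.9% to 79.2%) at 37°C. The 3 temperatures do not overlap, and the 37°C libraries stand furthest from the rest. With 2 libraries a group an exact two-sided permutation test cannot go below p = 0.333, so none was run. The copies share 404 of 495 aligned positions (81.6%) over the annotated genes, and their last 31 bases are the same, so a read confined to that end fits both places and belongs to the class that the counting leaves out. The last 60 bases are printed to show this, from chrXV:780537-780596 (plus strand) and chrXVI:281056-281115 (minus strand).
SNR17A: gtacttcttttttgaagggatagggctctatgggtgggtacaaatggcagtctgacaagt
SNR17B: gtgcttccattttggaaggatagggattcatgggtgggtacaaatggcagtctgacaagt
The first bases of SNR17A also lie within IRC13, an open reading frame on the same strand, which had 0 counts in every library.

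**Figure D3:**
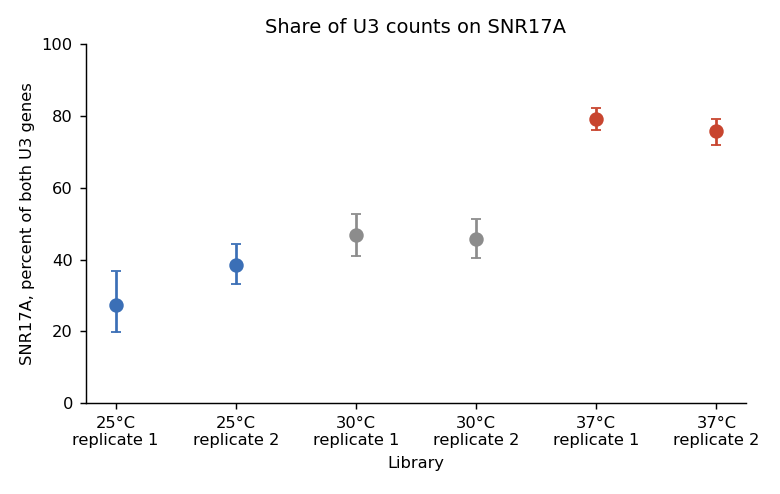
Percent of the summed counts of SNR17A and SNR17B that fell on SNR17A, by library, with 95% Wilson intervals. The 37°C libraries stand at 79.3% and 75.7%, above the 30°C and 25°C libraries.

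The other cleavage snoRNAs did not share the values of SNR17A. SNR128 (U14) is needed for the cuts that release 18S rRNA and also guides methylation of 18S rRNA. SNR128 had 247 and 281 CPM at 25°C, 258 and 276 CPM at 30°C, and 260 and 240 CPM at 37°C. Its log2 fold change at 37°C against 25°C was −0.08 (95% interval −0.76 to 0.59), which leaves room for less than a 2-fold change in either direction, and its sign turned with library totals alone (0.16). SNR30, an H/ACA snoRNA essential for 18S rRNA, had 323 and 408 CPM at 25°C, 360 and 346 CPM at 30°C, and 178 and 197 CPM at 37°C, and the 37°C libraries do not overlap the others. Its log2 fold change by edgeR was −0.97 (SE 0.30, adjusted p 0.288) at 37°C against 25°C and −0.91 (SE 0.30, adjusted p 0.610) at 37°C against 30°C. SNR10 had 35.3 and 37.9 CPM at 25°C, 23.7 and 36.8 CPM at 30°C, and 48.0 and 47.8 CPM at 37°C. It overlaps the open reading frame YGL088W, which had 1 count in all, and its log2 fold change of 0.37 at 37°C against 25°C was smaller than its SE of 0.38.

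Among the box C/D genes, 28 of the 44 tested had a positive log2 fold change at 37°C against 25°C. The median was 0.44, and 11 were higher and 3 lower at an unadjusted p below 0.05 (beside 7.53% and 6.02% of all genes). Without the first 25°C library the median was 0.13, and 7 of 45 were higher and 0 lower by edgeR (beside 6.34% and 4.0%). SNR70, a guide for 18S rRNA, had 129 and 137 CPM at 25°C, 197 and 202 CPM at 30°C, and 418 and 309 CPM at 37°C, an order in which no temperature overlaps another. Its log2 fold change was 1.44 (SE 0.31, 95% interval 0.70 to 2.18) at 37°C against 25°C, with an adjusted p of 0.184 by edgeR and 0.0406 by DESeq2 (0.0406 to 0.989 over 15 alternatives). SNR54 is another guide for 18S rRNA, and its counts were 0 and 2 (25°C), 8 and 6 (30°C), and 21 and 22 (37°C). Its pooled CPM ratio of 37°C to 25°C was 10.9, with a 95% counting interval of 2.84 to 92.8, so its size is poorly known. SNR66, SNR58 and SNR79 had log2 fold changes of 1.07, 1.26 and 1.08, with edgeR adjusted p of 0.341, 0.315 and 0.338.

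The box C/D guides with the most counts, SNR40 and SNR51, had negative values at 37°C against 25°C, which shrank without the first 25°C library. SNR40 had 2604 and 1089 CPM at 25°C, 664 and 1131 CPM at 30°C, and 749 and 609 CPM at 37°C. SNR51 had 3663 and 752 CPM at 25°C, 469 and 952 CPM at 30°C, and 692 and 467 CPM at 37°C. The log2 fold changes at 37°C against 25°C were −1.44 for SNR40 and −1.92 for SNR51 (edgeR adjusted p 0.339 and 0.347), against −0.71 and −0.41 without that library. SNR68 and SNR77, also among the 8 with the most counts, had 0.75 and −0.41 (edgeR adjusted p 0.621 and 0.651), and 0.094 and −0.16 without it.

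Among the 28 box H/ACA genes tested, 19 had a positive log2 fold change at 37°C against 25°C, with a median of 0.34, and 4 were higher and 8 lower at an unadjusted p below 0.05 (beside 7.53% and 6.02% of all genes). Without the first 25°C library 16 of 28 had a positive value, the median was 0.051, and 3 were higher and 3 lower (beside 6.34% and 4.0%). SNR161, which guides pseudouridylation of 18S rRNA, had 35.3 and 61.6 CPM at 25°C, 68.8 and 62.3 CPM at 30°C, and 182 and 159 CPM at 37°C. Both 37°C libraries lie above the other 4, and the log2 fold change was 1.71 (SE 0.35, edgeR adjusted p 0.172) against 25°C and 1.38 (SE 0.33, edgeR adjusted p 0.393) against 30°C. SNR189 had counts of 1 and 58 (25°C), 75 and 49 (30°C), and 193 and 202 (37°C), with a log2 fold change of 2.07 (edgeR adjusted p 0.279) against 25°C, and 1.49 without the first 25°C library.

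SNR81, which guides pseudouridylation of both 25S rRNA and U2, had 370 and 150 CPM at 25°C, 130 and 178 CPM at 30°C, and 94.9 and 70.3 CPM at 37°C. Its log2 fold change against 25°C was −1.60 (SE 0.48, edgeR adjusted p 0.279), and −0.90 without the first 25°C library. SNR8, a guide for 25S rRNA, had 147 and 262 CPM at 25°C, 247 and 266 CPM at 30°C, and 119 and 104 CPM at 37°C, so both 37°C libraries lie below the others. SNR84 had 7031 and 3506 CPM at 25°C, 2543 and 3594 CPM at 30°C, and 2460 and 1801 CPM at 37°C. The log2 fold changes of SNR84, SNR86, SNR46 and SNR49 were −1.31, −1.50, −1.32 and −1.61 at 37°C against 25°C (edgeR adjusted p 0.304 to 0.347), and −0.75, −0.72, −0.84 and −0.84 without that library. SNR9 and SNR42, the remaining genes among the 8 with the most counts, had 0.31 and 0.51, and 0.097 and 0.61 without it. SNR36 had 876 and 123 CPM at 25°C, 75.6 and 160 CPM at 30°C, and 94.9 and 72.2 CPM at 37°C. DESeq2 called it (adjusted p 0.0411), edgeR gave −2.53 (SE 0.86, adjusted p 0.315), and without the first 25°C library the value was −0.59. Over 15 alternatives its adjusted p by edgeR, DESeq2 or limma-voom ran from 0.0411 to 0.999.

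**Figure D4:**
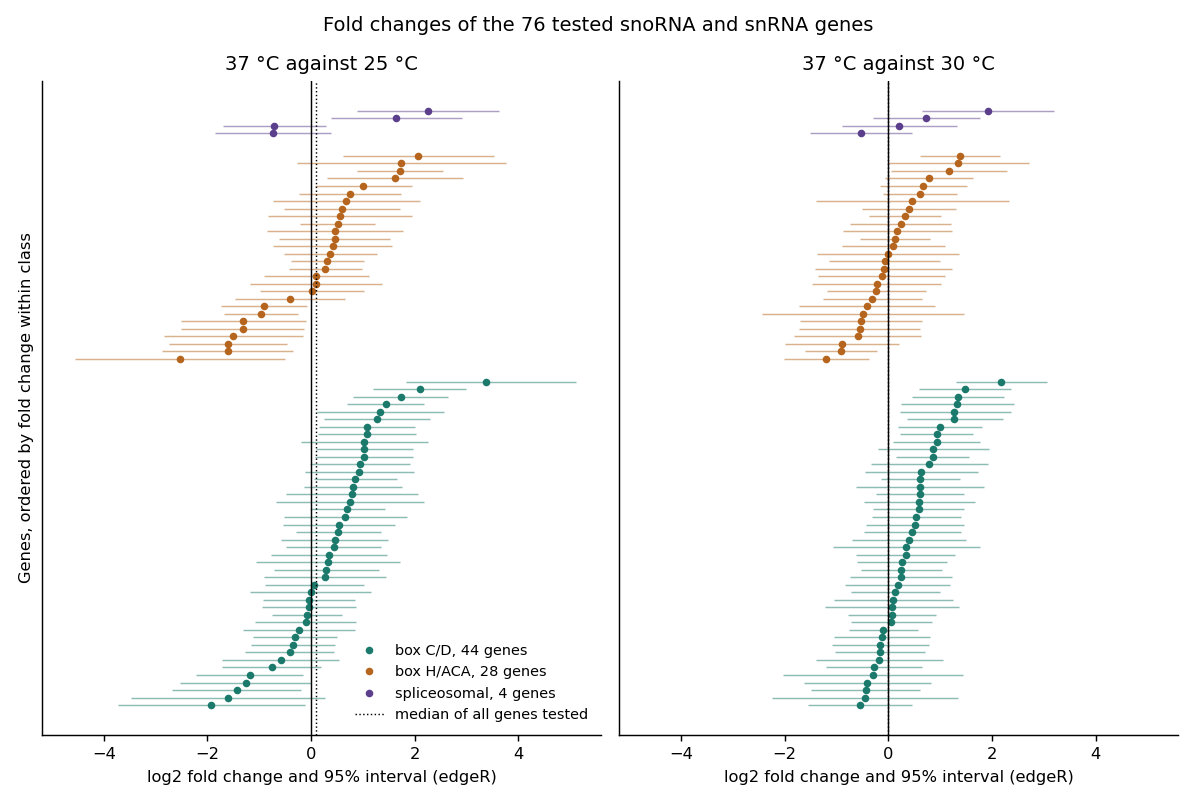
Log2 fold changes (points) with 95% intervals from edgeR for the 76 tested snoRNA and snRNA genes at 37°C against 25°C (left) and against 30°C (right), ordered within class. The dotted line is the median of all tested genes (0.09 and −0.01), and the box C/D genes have medians of 0.44 and 0.37.

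Of the 4 spliceosomal RNAs tested, U5 and U4 had positive log2 fold changes at 37°C against 25°C, and U1 and U6 had negative ones. SNR7-L (U5) had 5.88 and 49.7 CPM at 25°C, 41.7 and 48.1 CPM at 30°C, and 198 and 142 CPM at 37°C. Both 37°C libraries lie above the other 4, and the log2 fold change by edgeR was 2.25 (SE 0.58, adjusted p 0.245) against 25°C and 1.92 (SE 0.54, adjusted p 0.506) against 30°C. Where reads lie in the stretch shared with SNR7-S, the counting may have left them out, and that was not tested. SNR14 (U4) had counts of 1 and 9 (25°C), 18 and 11 (30°C), and 21 and 40 (37°C), with a log2 fold change of 1.64 (SE 0.54, edgeR adjusted p 0.299) against 25°C.

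SNR19 (U1) had 1746 and 778 CPM at 25°C, 569 and 738 CPM at 30°C, and 861 and 654 CPM at 37°C. SNR6 (U6), the one spliceosomal RNA made by RNA polymerase III, had 535 and 373 CPM at 25°C, 284 and 510 CPM at 30°C, and 327 and 224 CPM at 37°C. Their log2 fold changes at 37°C against 25°C were −0.73 (SE 0.47) and −0.71 (SE 0.42), with edgeR adjusted p of 0.534 and 0.498, and −0.07 and −0.47 without the first 25°C library. LSR1 (U2) had 12393 and 5608 CPM at 25°C, 4953 and 7011 CPM at 30°C, and 6280 and 5079 CPM at 37°C, with a log2 fold change of −0.66 (SE 0.55, edgeR adjusted p 0.624), and −0.013 without that library. Groups overlap for U1 and U2 in both comparisons with 37°C, and for U6 at 37°C against 30°C.

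At 37°C against 30°C, which does not use the first 25°C library for either mean, SNR4, SNR161, SNR17A, SNR7-L, SNR66 and SNR8 had the smallest p. This comparison sets 2 h at 37°C against steady growth at 30°C. No member was called by edgeR or limma-voom (0.0% of all genes by edgeR), and DESeq2 called SNR4 alone (0.282% of all genes with an adjusted p). At an unadjusted p below 0.05, 14 of 76 members were higher (18.4%, against 4.65% of all genes) and 2 were lower (2.63%, against 2.41%). All 14 higher members and both lower ones passed again when the first 25°C library was left out of the fit, and 16 of 77 were then higher (6.1% of all genes) and 3 lower (5.82%). The median of the members was 0.12 without the first 37°C library (−0.02 over all genes) and 0.29 without the second (−0.01). It was 0.28 without the first 30°C library (0.03 over all genes). The groups did not overlap for 34 members that were higher (44.7%, against 24.3% of all genes) and 5 that were lower (6.58%, against 20.2%).

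By class, the median log2 fold change at 37°C against 30°C was 0.37 for box C/D, −0.04 for box H/ACA and 0.47 for the 4 spliceosomal genes, beside −0.01 for all genes and 0.24 for all members. With library totals in place of TMM factors the median of all genes shifted by 0.24 in both comparisons with 37°C, and at 37°C against 30°C 19 members were higher (8.15% of all genes) and 1 lower (0.984%). With TMM factors, 10 of the 44 box C/D genes were higher and 0 lower at an unadjusted p below 0.05 by edgeR. Of the 28 box H/ACA genes 3 were higher and 2 lower. The shares of all genes in that fit were 4.65% higher and 2.41% lower. Whether the classes differ was not tested. SNR66, a guide for 25S rRNA, had 23.5 and 32.0 CPM at 25°C, 24.8 and 24.1 CPM at 30°C, and 75.7 and 48.8 CPM at 37°C, with a log2 fold change of 1.34 (SE 0.38, edgeR adjusted p 0.506) against 30°C. SNR8 had −1.20 (SE 0.35, 95% interval −2.02 to −0.38, edgeR adjusted p 0.518). Both comparisons share the 37°C libraries. With the first 25°C library left out, DESeq2 called SNR4 and SNR7-L at 37°C against 30°C (0.472% of all genes with an adjusted p).

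At 30°C against 25°C, both steady growth, the members showed no called gene by edgeR (0.0% of all genes), DESeq2 (0.0%) or limma-voom. At an unadjusted p below 0.05, SNR54 was higher (1.1% of all genes) and SNR36 lower (0.309%), and neither passed without the first 25°C library. The median log2 fold change was 0.03 over the members and 0.08 over all genes. SNR36, SNR51, SNR67, SNR60 and SNR19 had −2.04, −1.63, −0.98, −1.08 and −0.94, all with an edgeR adjusted p of 0.888, and each of these genes had its highest level of the 2 temperatures in the first 25°C library. Without it, 19 members changed sign. Without the second 25°C library the median was 0.36 over the members and 0.20 over all genes. For 7 of the 76 members the 95% interval of this comparison lay within 2-fold in either direction, so a change of 2-fold could not be set aside for most.

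Neighbouring members that are transcribed together differed in their values. The 5 arrays of members on 1 strand with gaps under 500 bases hold 17 genes, apart from the U5 pair. The largest is the array of 7 box C/D genes SNR78, SNR77, SNR76, SNR75, SNR74, SNR73 and SNR72, at chrXIII:297278-298651 on the plus strand, which is known to be made as a polycistronic precursor. Within it SNR77 took 39.2% of the counts at 15.5 counts per base, and SNR74 took 3.56% at 1.41 counts per base. SNR75 had 165 and 130 CPM at 25°C, 97.0 and 113 CPM at 30°C, and 258 and 160 CPM at 37°C, and was the one gene of the array with an unadjusted p below 0.05 in either comparison with 37°C (0.0228 against 30°C by edgeR, adjusted p 0.650).

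In the array SNR41, SNR70 and SNR51, transcribed in that order on the minus strand of chromosome XVI, neighbouring genes had opposite values. SNR41 had 118 and 111 CPM at 25°C, 59.8 and 103 CPM at 30°C, and 83.1 and 51.6 CPM at 37°C. The log2 fold changes at 37°C against 25°C were −0.76 for SNR41, 1.44 for SNR70 and −1.92 for SNR51, and without the first 25°C library −0.76, 1.37 and −0.41. SNR190 and SNR128, the pair on chromosome X, had 1.02 and −0.08, with edgeR adjusted p of 0.347 and 0.918. SNR67 and SNR53 had 385 and 20 counts, and the members of SNR57, SNR55 and SNR61 lay between −0.11 and 0.54 at 37°C against 25°C. Differences between neighbours were not tested.

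**Figure D5:**
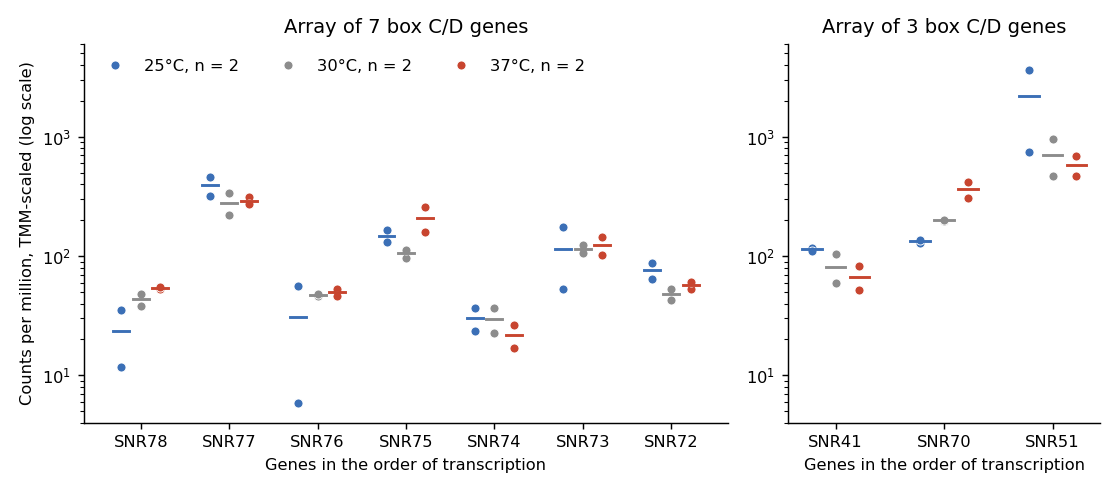
Level in CPM (TMM-scaled, log axis) of the genes in 2 arrays of box C/D snoRNAs, in the order of transcription, for each library. Points are libraries and bars are means of 2 libraries, and SNR51 had 3663 CPM in the first 25°C library.

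Of the 81 members 8 lie in introns of coding genes: SNR18 in EFB1, SNR24 in ASC1, SNR38 in TEF4, SNR39 in RPL7A, SNR59 in RPL7B, SNR54 in IMD4, and the H/ACA genes SNR44 in RPS22B and SNR191 in NOG2. SNR44 had 23.5 and 15.4 CPM at 25°C, 33.8 and 12.7 CPM at 30°C, and 52.2 and 55.3 CPM at 37°C. Its log2 fold change was 1.61 (SE 0.56, edgeR adjusted p 0.318) at 37°C against 25°C, beside −0.05 for RPS22B. SNR18, SNR24 and SNR38 had 0.85, 1.03 and 0.66, beside −0.30, 0.07 and −0.45 for EFB1, ASC1 and TEF4, which encode translation factors and the ribosome-bound protein Asc1. SNR39 had −1.60 (−0.23 without the first 25°C library) beside −0.14 for RPL7A, and SNR54 had 3.37 beside 0.38 for IMD4, an enzyme of guanine nucleotide synthesis. None of the hosts or their snoRNAs had an edgeR adjusted p below 0.05, the difference between snoRNA and host was not tested, and the snoRNAs had 59 to 896 counts in all, against 2788 to 8431 for these hosts.

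The mRNAs of proteins that bind and process these RNAs were read from 6 lists, and none was called by edgeR at 37°C against 25°C. Of the 4 box H/ACA core proteins 3 were lower at an unadjusted p below 0.05, beside 6.02% of all genes. GAR1 had 2922 and 2009 CPM at 25°C, 1356 and 1879 CPM at 30°C, and 921 and 726 CPM at 37°C. CBF5, the pseudouridine synthase, had 2058 and 1084 CPM at 25°C, 818 and 1044 CPM at 30°C, and 573 and 543 CPM at 37°C. Both 37°C libraries were the lowest of the 6 for each gene. The log2 fold changes of GAR1 and CBF5 were −1.58 and −1.49, with edgeR adjusted p of 0.245 and 0.272, and DESeq2 called both (adjusted p 0.0219 and 0.0396, the lowest over 15 alternatives, with a highest of 0.999 for each). Of the 4 box C/D core proteins 2 were lower at an unadjusted p below 0.05, NOP56 with −1.28 and NOP58 with −0.99 (edgeR adjusted p 0.285 and 0.348). Without the first 25°C library GAR1, CBF5, NHP2 and NOP56 still had an unadjusted p below 0.05 by edgeR, and NOP58 did not.

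Of the snoRNP assembly factors 1 of 8 tested was lower at an unadjusted p below 0.05, the helicase RVB2 at −0.97, and RVB1 had −0.58. Of the 14 termination and 3′ processing factors 1 was lower, the exosome cofactor LRP1 at −1.23, and 13 had a negative log2 fold change. A single gene in lists of this size cannot be told from the 6.02% of all genes that were lower, and without the first 25°C library RVB2 had −0.61 and LRP1 −0.51, neither with an unadjusted p below 0.05. NRD1, which ends transcription of snoRNA genes, had −0.81. No Sm or Lsm protein of 13 tested and no snRNP-specific protein of 23 had an unadjusted p below 0.05 at 37°C against 25°C, and LSM4, LSM5, PRP42 and SNU71 had −0.93, −0.67, 0.51 and −0.51. The median over all genes was 0.09, and the medians of the lists ran from −1.21 for the box H/ACA core to 0.06 for the snRNP-specific proteins.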

How the data were processed

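The authors deposited raw counts of reads in annotated genes for 6 total RNA libraries, made by mapping to the R64 genome, and the submitters' processing notes name HTSeq 2.0.2, STAR 2.7.10a, DESeq2 1.38.2 and UMI-tools 1.0.1. UMI handling and counting mode are described only for other libraries of the study, and use of strand in counting is not given in sources used here. A deposited table of normalized values was not used. Entries for reads in no gene (41.1% to 47.9% of a library) or in several places (7.81% to 14.1%) entered neither library sizes nor tests. Reads that overlap 2 genes or fit both copies of a gene may therefore be lost to members such as SNR7-L and the U3 genes.

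These counts were tested with edgeR 4.0.16 (R 4.3.3; filterByExpr, TMM, quasi-likelihood F test) on the 3 temperatures in a single fit, with a common biological coefficient of variation of 0.323. P-values were adjusted by Benjamini-Hochberg over 5181 genes. Before use, the fit was run on counts simulated for 37°C against 25°C with 200 of 5181 genes changed. Those counts were drawn with the spread that the fit itself had estimated. They cannot show how well the fit handles a library that stands apart, such as the first at 25°C. CPM are given for each of the 2 libraries in place of a mean and SD, and SE is that of the log2 fold change. Replicate numbers did not pair the samples: the correlations of deviations were −0.53, 0.28 and −0.40 for the 3 pairs of temperatures.

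The members, the lists of binding proteins and the alternatives were chosen with earlier results of these data known. Genes named were the spliceosomal RNAs and LSR1, the 5 cleavage snoRNAs, the 8 members with the most counts in each box class, the 6 with the smallest p per comparison, any called gene, the intron-encoded snoRNAs with their hosts, and up to 2 genes of each protein list by p. SNR33, SNR47, SNR56, SNR189, SNR58, SNR79, NHP2, RPS26B and the other genes of the arrays were added after their values were seen. Alternatives were DESeq2 1.42.0, limma-voom (limma 3.58.1), other size factors and filters, fits of 2 temperatures, a replicate block, an adjusted p alone, each library left out, and, chosen after seeing the data, DESeq2 without the first 25°C library. Sequences and positions come from RefSeq's R64, to which 6458 of 6461 genes were matched, and were read with Biopython 1.88 under Python 3.11.15 (scipy 1.17.1, matplotlib 3.10.9, pandas 2.3.3).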

Additional observations from a re-analysis of the deposited data

How the results depend on the processing

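The comparisons rest on 2 libraries a group, and those with 25°C on a library of 184456 counts. The count of called members, 0 in each comparison, became 4 for 37°C against 25°C with DESeq2 and 1 for 37°C against 30°C, and 1 and 2 with DESeq2 and without the first 25°C library. With each library left out in turn it ran from 0 to 16 at 37°C against 25°C, the 16 coming without the second 25°C library, and stayed at 0 in the other comparisons. Median log2 fold changes of the members then ran from 0.095 to 0.88 at 37°C against 25°C, from 0.12 to 0.29 for 37°C against 30°C, and from −0.073 to 0.36 at 30°C against 25°C. With at least 10 counts in every library, which kept 38 members, the medians were −0.047 and 0.091 in the comparisons with 37°C, and with library totals alone the median was 0.48 at 37°C against 30°C. SNR128 turned from a negative to a positive log2 fold change with library totals alone (0.16 against 25°C, 0.14 against 30°C) and with at least 10 counts (0.18 and 0.011); the cause was not tested. Over all reads listed by the counting program, members held 1.02% at 25°C, 0.726% at 30°C and 0.825% at 37°C. A replicate block, for numbers that did not pair the samples, also gave 0 calls in each comparison, among the members and among all 5181 genes tested. Of 468 values under the alternatives, for 32 pairs of a named gene and a comparison, 453 kept their direction and their side of the threshold. No gene was called in the main fit, so a value could change sides only by becoming a call. The tally did not cover every named gene in every comparison. At 37°C against 25°C it left out SNR36, which DESeq2 called, and SNR40, SNR49, SNR51 and SNR86. Members with 3 counts or fewer in a library cannot be read there.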

Other observations

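Of the other stable non-coding RNAs in the table, RPR1, the RNA subunit of RNase P, had 517 and 299 CPM at 25°C, 370 and 515 CPM at 30°C, and 1119 and 818 CPM at 37°C, so both 37°C libraries lie above the other 4. Its log2 fold change by edgeR was 1.26 (SE 0.42, adjusted p 0.312) at 37°C against 25°C and 1.13 (SE 0.42, adjusted p 0.657) at 37°C against 30°C. TLC1, the telomerase RNA, had 3633 and 1625 CPM at 25°C, 1276 and 1686 CPM at 30°C, and 1022 and 866 CPM at 37°C, with a log2 fold change of −1.47 (SE 0.50, edgeR adjusted p 0.312) against 25°C. SCR1, the RNA of the signal recognition particle, and NME1, the RNA of RNase MRP, had 0.39 and 0.28, each smaller than its SE of 0.40 and 0.42.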
